A study of Mus musculus with 21 samples.

Results

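The OAS family was followed in mouse macrophages through 6 genes: Oas1a, Oas1g, Oas2, Oas3, Oasl1 and Oasl2. The genes were taken by symbol, which was matched to the Ensembl IDs of the deposited gene table, and all 6 of the 23250 genes in that table that the rule names were found and passed the filter on low counts. The question behind the study is what the soluble mannose receptor does to macrophages without a receptor of their own. Cells were grown for 7 days from marrow of the femur and tibia of mice on the C57BL/6J background, in medium with 2.5 % of the supernatant of a line that makes GM-CSF. All 7 groups share the deficiency in Mrc1, the gene of the mannose receptor, so none of them holds wild-type cells. The groups were untreated cells at 0 h, cells given FcMR for 4, 12 or 24 h, and cells given the isotype control for 4, 12 or 24 h, with 3 libraries each and 21 in all. FcMR is a fusion protein of the Fc part of human IgG1 with the extracellular part of the receptor. No untreated library was taken at 4, 12 or 24 h, so the isotype control protein and time in culture cannot be told apart. The labels do not say whether the 3 libraries of a group came from separate mice or cultures, so p-values measure the spread between these libraries, which may be technical.

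OAS enzymes are sensors of double-stranded RNA. Once bound to it, the active members join ATP into short chains called 2-5A, a second messenger of the antiviral response. Type I interferon raises the transcription of the family, so that its genes are commonly used as a readout of interferon signalling in macrophages. Oas1a, Oas1g, Oas2 and Oas3 are synthetases, Oas2 and Oas3 with the synthetase domain repeated. Oasl1 and Oasl2 carry ubiquitin-like domains at their end. Oasl1 makes no 2-5A and is known for holding back the translation of Irf7 mRNA, whereas the mouse Oasl2 protein kept the enzyme activity.

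Libraries held 5532225 to 66729533 counts, and 3 counts, the smallest level relied on, corresponded to 0.045 to 0.542 CPM, the counts scaled to a common library total. Such floors cover counting error only. Replicates of a group correlated at r = 0.92 to 0.987 over genes. Mrc1 had 0 to 11 counts per library. The 8 macrophage and myeloid markers were all present and summed to 20546 to 35857 CPM, whereas the 5 T cell, 3 B cell and 5 fibroblast markers reached at most 4.43, 5.98 and 4.39 CPM. The 1 natural killer cell marker of 2 in the table reached 1.95 CPM and the 2 mast cell markers of 3 reached 19.4 CPM. The 6 neutrophil markers summed to 1391 to 1610 CPM in untreated libraries and to 182 to 228 CPM at 24 h. Libraries also differed in GC tilt, the mean log2 deviation of the tenth of genes with the highest GC content (at least 57.7%) minus that of the tenth with the lowest (at most 41.2%). The lowest tilt was -1.62 and the highest 0.841. It was spread most within isotype 4 h (-0.84, -1.62 and 0.636), FcMR 12 h (-0.743, 0.74 and 0.824) and FcMR 24 h (-0.377, -1.326 and 0.412). It also differed between groups, at -0.38, -0.163 and -0.499 in FcMR 4 h and 0.601, 0.827 and 0.841 in isotype 12 h libraries. In the titles, FcMR 12 h replicate 1 and isotype 4 h replicate 3 stand in each other's place in the order of library numbers.

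All 6 genes lie on chromosome 5 (GRCm38) in 2 blocks that are 5792417 bases apart. Oasl2 (ENSMUSG00000029561.17, 114896936 to 114912234) and Oasl1 (ENSMUSG00000041827.15, 114923240 to 114937915) stand side by side on the plus strand within 40980 bases. Oas2 (ENSMUSG00000032690.16, 120730333 to 120749853), Oas3 (ENSMUSG00000032661.9, 120753098 to 120777661), Oas1g (ENSMUSG00000066861.14, 120876142 to 120887613) and Oas1a (ENSMUSG00000052776.10, 120896256 to 120907521) follow each other on the minus strand within 177189 bases. Oas2 overlaps Gm43068 and Oasl1 overlaps Gm13822 on the opposite strand. These overlaps are of whole gene spans, and whether exons overlap was not checked. No source used here says that counting used strand, so reads from any bases in transcripts of both genes cannot be told apart.

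The 100 bases before the transcription start show where members of the family share a promoter element. They were taken from RefSeq (GRCm38.p6), which matched 5 of the 6 members by symbol (Oas2 was not matched). The capitals mark matches to GAAANNGAAA, the core of the interferon-stimulated response element, searched on both strands from 250 bases before to 50 after the start, and in Oas3 also an overlapping match to the shorter GAAANNGAA.
Oas1a (chr5:120907526-120907625, minus strand): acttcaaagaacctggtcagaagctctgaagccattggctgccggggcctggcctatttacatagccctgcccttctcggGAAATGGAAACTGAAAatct
Oas1g (chr5:120887614-120887713, minus strand): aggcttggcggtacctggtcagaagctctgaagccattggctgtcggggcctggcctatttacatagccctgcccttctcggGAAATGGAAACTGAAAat
Oas3 (chr5:120777660-120777759, minus strand): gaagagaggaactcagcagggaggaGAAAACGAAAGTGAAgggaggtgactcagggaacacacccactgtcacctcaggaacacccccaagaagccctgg
Oasl1 (chr5:114923140-114923239, plus strand): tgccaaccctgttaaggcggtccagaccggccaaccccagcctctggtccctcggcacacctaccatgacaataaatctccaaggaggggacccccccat
Oasl2 (chr5:114896834-114896933, plus strand): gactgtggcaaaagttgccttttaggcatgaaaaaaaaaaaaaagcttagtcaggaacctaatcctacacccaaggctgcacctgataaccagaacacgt

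The windows of Oas1a and Oas1g held 2 overlapping matches to GAAANNGAAA each. These were at bases -20 to -11 and -14 to -5 from the start in Oas1a, and at -18 to -9 and -12 to -3 in Oas1g. Oas3 held 1 match, at -75 to -66. The motif was therefore in 3 of the 5 members with a window, and in 3.99% of all 27025 genes with a window (3.443% of their 32851 windows). Oas1a and Oas1g, whose printed bases are nearly the same, are not separate observations. GAAANNGAA, which every match to the longer motif contains, was in 9.76% of these genes and 8.56% of all windows. The letters were absent from the windows of Oasl1 and Oasl2, the members called higher under FcMR at all 3 times below, and a match or its absence is a description of these windows only.

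Oas1a and Oas1g are near-identical copies, which limits how well their counts can be kept apart. Their coding sequences of 1101 bases each were 96.7% identical, with an unbroken shared run of 231 bases, whereas the other pairs of members were 59.1 to 67.8% identical. Of the 1811 windows of read length (75 bases) along the Oas1a transcript, 47.6% also occurred in Oas1g, and of the 1903 along Oas1g 44.6% occurred in Oas1a. No window of that length in Oas2, Oas3, Oasl1 or Oasl2 occurred in a transcript of another gene. Transcripts were searched in the sense direction only, so sharing with genes on the opposite strand was not covered. Reads can be assigned to 1 of the 2 copies from stretches such as the following 75 coding bases of exon 3, where capitals mark the 16 bases that differ.
Oas1a (chr5:120901980-120902054, minus strand): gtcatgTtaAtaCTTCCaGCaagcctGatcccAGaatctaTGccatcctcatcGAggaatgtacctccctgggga
Oas1g (chr5:120881995-120882069, minus strand): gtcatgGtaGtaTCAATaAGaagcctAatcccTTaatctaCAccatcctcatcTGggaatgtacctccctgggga
The first 75 coding bases, in exon 1, are the same in both. A read from there had to be divided between the copies by estimation, so the level of each is less certain than their sum, and fits with all Oas1 genes summed to 1 feature are given below beside several results for the pair.

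In untreated cells the members other than Oas1a were low, and every member was higher in every treated library than in any untreated one. Under the isotype control Oasl2 had the largest fold change at each time and Oas1a the smallest. At each of the 3 times, 6 of 6 members were called higher in isotype than in untreated cells (adjusted p under 0.05 in edgeR's quasi-likelihood test, which gives all p-values below), against 20.4% of all 13468 tested genes called higher at 4 h, 22% at 12 h and 21.3% at 24 h. The members' median log2 fold change was 3.5, 4.58 and 3.62 at the 3 times, and that of all tested genes was 0, 0.03 and -0.04. Oasl2 was higher by 4.96 (SE 0.105), 5.32 (SE 0.107) and 4.81 (SE 0.105) on the log2 scale at 4, 12 and 24 h. Oasl1 was higher by 4.47 (SE 0.372) at 4 h, 4.92 at 12 h and 3.23 at 24 h, and Oas3 by 3.86 (SE 0.275), 5.05 and 4.45. Oas2 was higher by 3.15, 3.66 and 3.44, Oas1g by 2.83, 4.24 and 3.80, and Oas1a by 2.82, 3.57 and 2.91. The Oas1 genes summed were higher by 2.73, 3.57 and 2.98. For all 6 members the 12 h value was the highest, and the 24 h value was the lowest for Oasl1 and Oasl2 and the 4 h value for the other members. The largest adjusted p among these was 1.12e-06, for Oasl1 at 24 h. These comparisons share the 3 untreated libraries. Summed CPM of the neutrophil markers fell over the same times (1391 to 1610 in untreated, 294 to 381 in isotype 12 h libraries), and its part in the rise was not tested. In such bulk samples, fewer cells of a type and less RNA per cell cannot be told apart.

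FcMR was followed by higher levels than the isotype control most broadly at 4 h. At 4 h, 5 of 6 members were called higher and none lower, against 8.62% of tested genes called higher, and Oas2 was the member not called. At 12 h and at 24 h 2 of 6 were called higher, Oasl1 and Oasl2, against 8.61% and 11.4% of tested genes. The members' median log2 fold change was 1.02, 0.28 and 0.18 at the 3 times, and that of all tested genes -0.07, -0.02 and 0.01. The CPM of the 2 groups did not overlap for 5, 2 and 2 members, FcMR above isotype each time, against 13.5%, 17.5% and 17.8% of tested genes. These comparisons use the same isotype libraries as those with untreated cells.

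**Figure D1:**
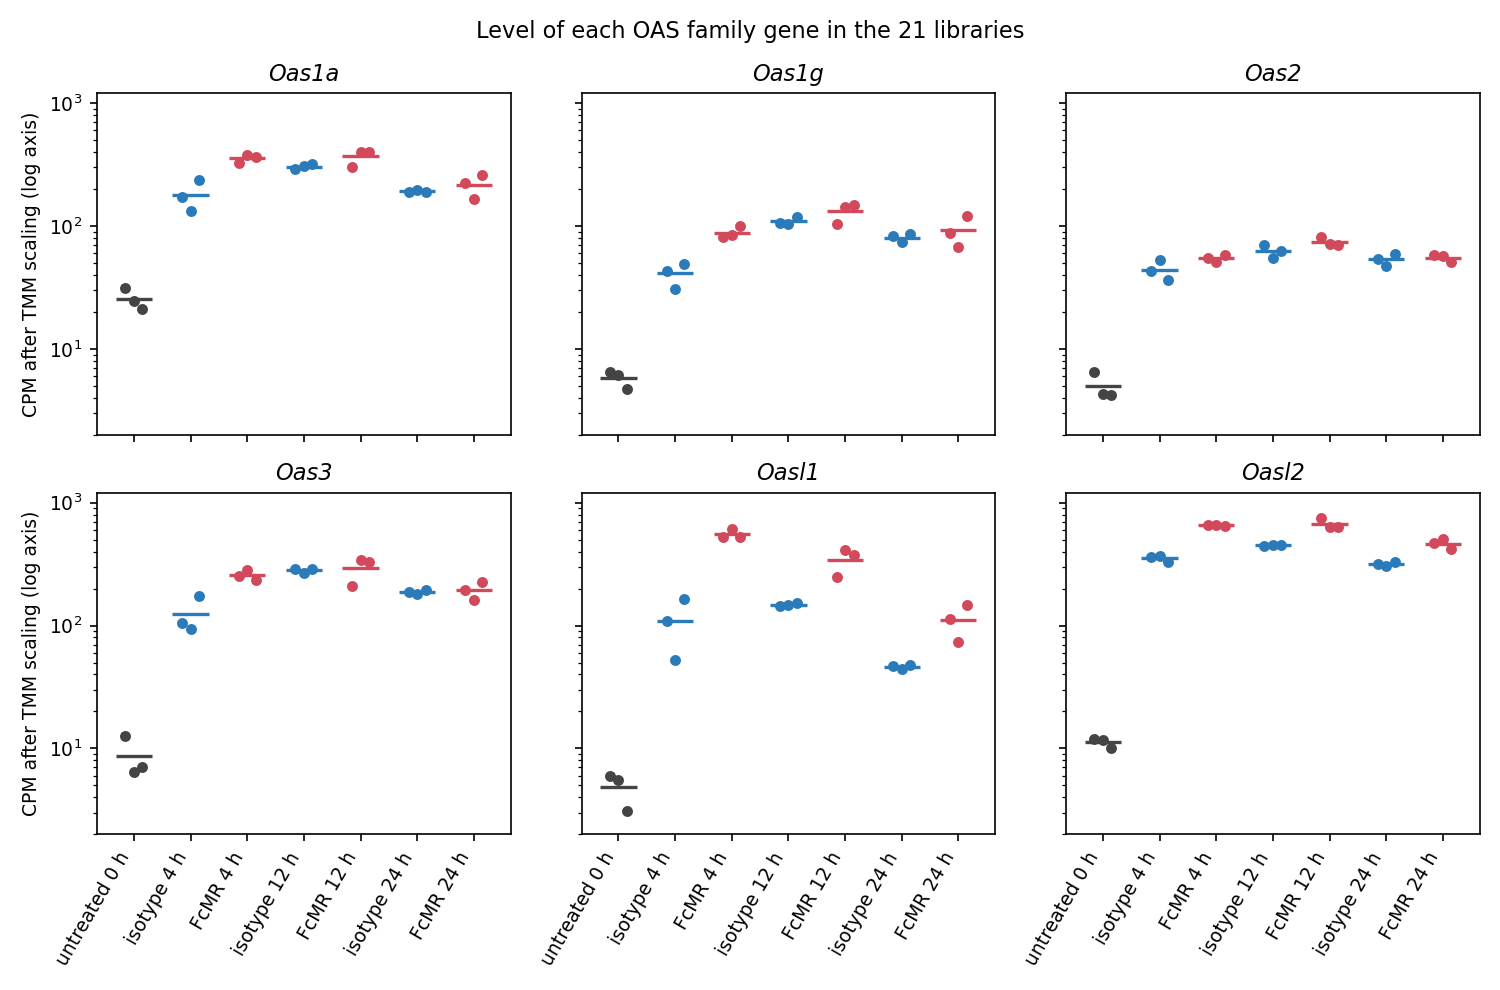
CPM after TMM scaling (log axis) of the 6 genes in each library, with 1 point per library and a bar at the mean of 3. Untreated libraries are grey, isotype blue and FcMR red: all treated libraries lie above the untreated ones, and Oasl1 and Oasl2 have every FcMR library above the isotype libraries of the same time.

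Among the synthetases, Oas1a had the highest level in untreated cells. Its CPM was 31.2, 24.8 and 21.2 in the 3 untreated libraries, 173, 133 and 236 in isotype 4 h, and 326, 379 and 366 in FcMR 4 h. All 3 FcMR libraries at 4 h were above all 3 isotype libraries. The difference was 0.98 on the log2 scale (SE 0.19, adjusted p = 0.00137). At 12 h the isotype libraries held 289, 306 and 321 CPM and the FcMR libraries 303, 402 and 404, and at 24 h 190, 197 and 191 against 226, 165 and 260. FcMR replicate 1 lay within the isotype range at 12 h and replicate 2 below it at 24 h, and the differences of 0.28 (SE 0.188, adjusted p = 0.403) and 0.17 (SE 0.19, adjusted p = 0.609) were not called. For 3 libraries the GC tilt stood apart: isotype 4 h replicate 3, FcMR 12 h replicate 1 and FcMR 24 h replicate 2. Without them the difference at 12 h was 0.40 and called (adjusted p = 0.0287). That setting was chosen after seeing the data and was the only 1 of 33 alternatives with a call. With a GC correction per library the difference at 12 h was 0.32 and not called (adjusted p = 0.101).

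Oas1g, its neighbour, was lower but followed the same course at 4 h. Untreated libraries held 6.51, 6.12 and 4.74 CPM, isotype 4 h libraries 43.2, 30.8 and 49.6, and FcMR 4 h libraries 81.5, 84.3 and 100. The groups at 4 h did not overlap, with a difference of 1.10 (SE 0.199, adjusted p = 0.000803). With all Oas1 genes summed to 1 feature the difference at 4 h was 0.98 (adjusted p = 0.00114). At 12 h the values were 107, 104 and 118 CPM in isotype and 105, 144 and 149 in FcMR, and at 24 h 82.7, 73.8 and 85.7 against 87.8, 68.1 and 121. In both cases 1 FcMR library fell in or under the isotype range, and the differences of 0.27 (adjusted p = 0.417) and 0.19 (adjusted p = 0.566) were not called. Without the same 3 libraries that at 12 h was 0.42 and called (adjusted p = 0.0401), again in only 1 of 33 alternatives. With the GC correction the difference at 12 h was 0.31 and not called (adjusted p = 0.153).

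The ratio of Oas1a to Oas1g lay lower at the later times in both arms. It was 4.44 ± 0.37 (SD, n = 3) in untreated, 4.35 ± 0.383 in isotype 4 h and 4.05 ± 0.431 in FcMR 4 h libraries. It was 2.79 ± 0.135 and 2.8 ± 0.092 in isotype and FcMR at 12 h, and 2.4 ± 0.234 and 2.38 ± 0.218 at 24 h. The lowest ratio at 0 or 4 h, 3.65 in FcMR 4 h replicate 3, was above the highest at 12 or 24 h, 2.94 in isotype 12 h replicate 2. The ratio itself was not tested, and the division of shared reads enters it.

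**Figure D2:**
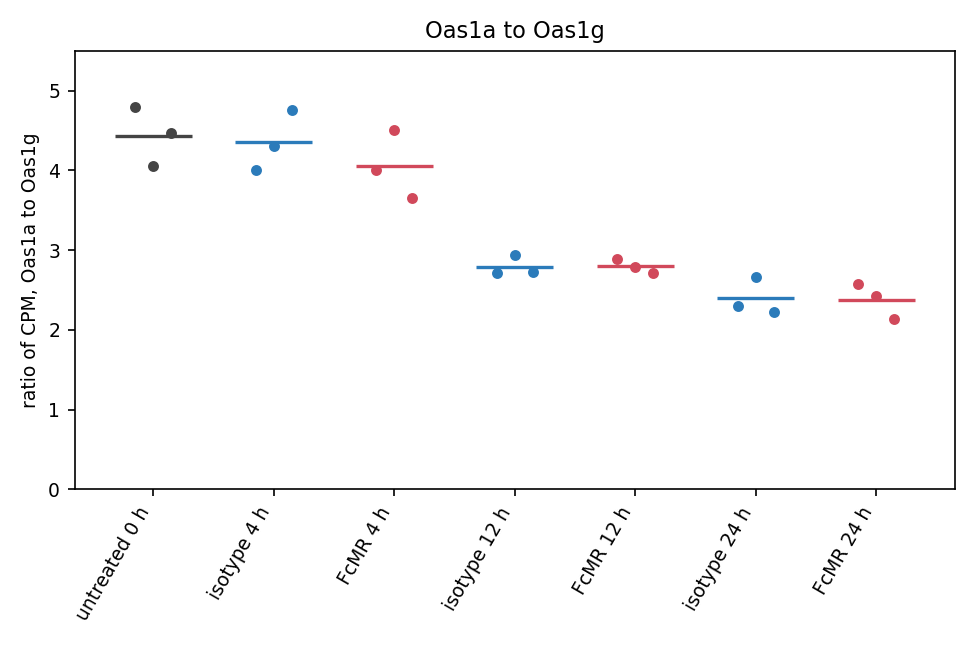
The ratio of Oas1a to Oas1g CPM (linear axis) in each library, with 1 point per library and a bar at the mean of 3; untreated grey, isotype blue, FcMR red. The ratio lies at 3.65 or more at 0 and 4 h and at 2.94 or less later in both arms.

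Oas2 was the member not called at any time under FcMR against isotype. Its CPM was 6.51, 4.32 and 4.25 in untreated, 43.5, 52.7 and 36.1 in isotype 4 h and 55.2, 51.1 and 58.1 in FcMR 4 h libraries. FcMR replicate 2 fell within the isotype range, and the difference of 0.32 was not called (SE 0.148, adjusted p = 0.159). Without isotype 4 h replicate 2, the highest of its group and the shallowest library, it was 0.50 and called (adjusted p = 0.0389). The groups overlapped at 12 h (69.7, 55.5 and 62.7 CPM in isotype, 81.8, 71 and 69.6 in FcMR) and at 24 h (54.4, 47.7 and 59.1 against 57.9, 57.1 and 51.3). The differences there were 0.24 (adjusted p = 0.326) and 0.05 (adjusted p = 0.88).

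Oas3, the longest synthetase, was far above its untreated level in both arms and was called between them at 4 h. Untreated libraries held 12.6, 6.39 and 7.03 CPM, isotype 4 h libraries 104, 93.3 and 173, and FcMR 4 h libraries 254, 284 and 236. No isotype library at 4 h reached the FcMR range, and the difference was 1.06 (SE 0.239, adjusted p = 0.0044). At 12 h the isotype libraries held 286, 269 and 291 CPM and the FcMR libraries 211, 341 and 332, and at 24 h 186, 179 and 193 against 193, 161 and 226. FcMR replicate 1 lay below the isotype libraries at 12 h, as FcMR replicate 2 did at 24 h, and the differences were 0.06 (adjusted p = 0.925) and 0.05 (adjusted p = 0.919).

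Oasl1 had the widest difference between FcMR and isotype at every time. Untreated libraries held 6.02, 5.52 and 3.11 CPM, isotype 4 h libraries 108, 52.7 and 164, and FcMR 4 h libraries 529, 612 and 526. The lowest FcMR library was far above the highest isotype library, and the mean was 5.14-fold that of isotype (log2 fold change 2.36, SE 0.32, adjusted p = 5.21e-05). The spread among the isotype libraries at 4 h went with their GC tilt: replicate 2, lowest in Oasl1, had the lowest tilt and replicate 3, highest in Oasl1, the highest. Oas1a, Oas1g and Oas3 had the same order of libraries. Oas2 and Oasl2, with GC contents of 50.6% and 49.4%, had the reverse order. The Oasl1 transcript has a GC content of 56.3%, the highest of the 6. With a GC correction per library the difference of Oasl1 was 2.32 (adjusted p = 1.44e-09).

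At 12 h Oasl1 was at 144, 147 and 154 CPM in isotype and 248, 410 and 372 in FcMR, and at 24 h at 46.5, 44.6 and 47.4 against 114, 73.4 and 147. The groups were apart at both times, by 1.21 (SE 0.308, adjusted p = 0.0101) and 1.27 (SE 0.315, adjusted p = 0.00694). Within FcMR 12 h and FcMR 24 h the library with the lowest Oasl1 was again the one with the lowest tilt. That library was also lowest in Oas1a, Oas1g and Oas3, and highest in Oasl2. With the GC correction the differences were 1.35 (adjusted p = 7.43e-07) and 1.39 (adjusted p = 6.77e-07).

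Oasl2 differed less than Oasl1 but with the smallest errors. Its CPM was 12, 11.7 and 10.1 in untreated, 364, 369 and 326 in isotype 4 h and 657, 655 and 651 in FcMR 4 h libraries. The 3 FcMR libraries were almost equal and all above the isotype ones, with a difference of 0.89 (SE 0.088, adjusted p = 1.97e-06). At 12 h the isotype libraries held 444, 454 and 456 CPM and the FcMR libraries 755, 630 and 637, and at 24 h 317, 305 and 331 against 474, 502 and 416. Neither time had an overlap, and the differences of 0.58 (SE 0.0873, adjusted p = 0.000115) and 0.55 (SE 0.0875, adjusted p = 0.000158) were called.

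**Figure D3:**
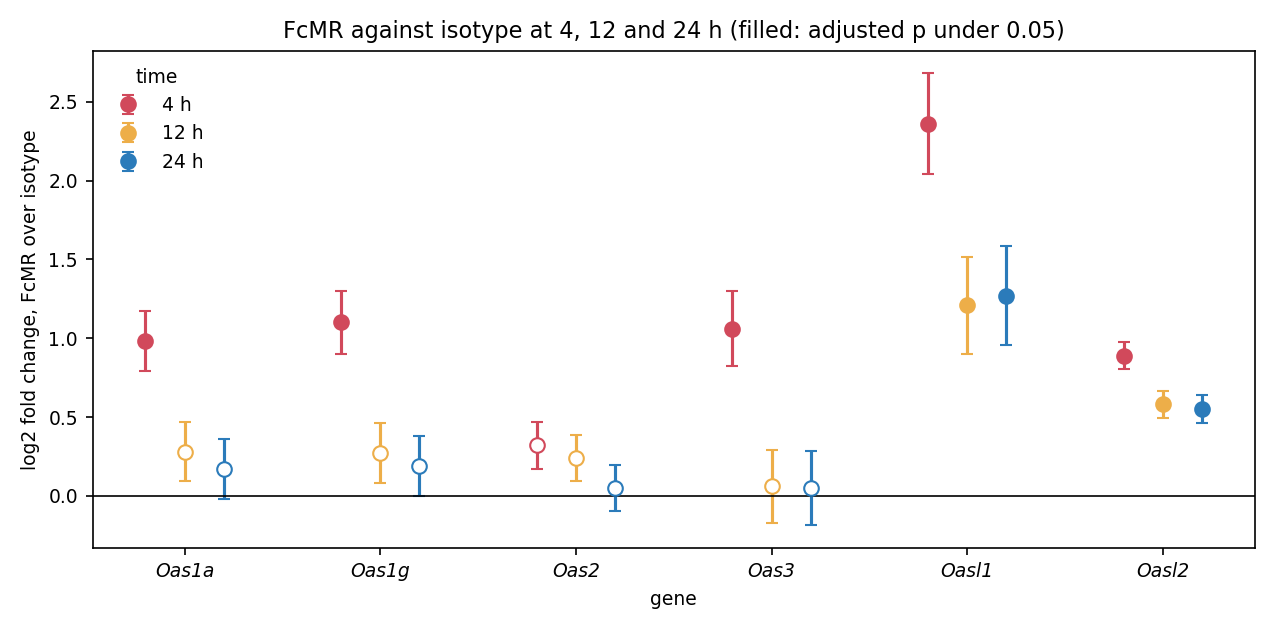
Log2 fold change of FcMR over isotype at 4, 12 and 24 h for each gene, with bars of 1 standard error and filled points where the adjusted p is under 0.05. At 4 h all genes but Oas2 are filled, and at 12 and 24 h only Oasl1 and Oasl2 are.

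Whether the FcMR effect changed with time was tested itself. For 5 of 6 members it was smaller at 12 h than at 4 h by 0.31 (Oasl2), 0.71 (Oas1a), 0.82 (Oas1g), 1.0 (Oas3) and 1.15 (Oasl1) on the log2 scale, and for Oas2 by 0.08. None of these was called in edgeR (adjusted p from 0.0964 to 0.893, 5 of 6 with an unadjusted p under 0.05), against 5.39% of tested genes. The joint test over the 3 times called 0 of 6 as well, with 5 of 6 at an unadjusted p under 0.05 and adjusted p from 0.0622 (Oas1g) to 0.681 (Oas2), against 11% of tested genes. The difference between 24 h and 12 h called 0 of 6, none with an unadjusted p under 0.05, against 1.73% of tested genes.

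These 2 counts of 0, for 12 h against 4 h and for the joint test, were not stable. The shares of tested genes given above are those of the main fit. The counts of other settings are not set against a share of their own, which may also have moved. With the GC correction both tests called 5 of 6, all but Oas2, with adjusted p for 12 h against 4 h from 0.00332 (Oasl1) to 0.0213 (Oas1a). DESeq2 called 2 of 6 for 12 h against 4 h, 4 of 6 jointly and 0 of 6 for 24 h against 12 h. Without isotype 4 h replicate 3, the library whose tilt stood apart from its group and whose library number is out of order, each of the first 2 tests called 4 of 6. The joint test called 3 of 6 without FcMR 24 h replicate 3 and 1 of 6 without untreated replicate 1, and the 12 h against 4 h test called 1 of 6 without FcMR 24 h replicate 2 or replicate 3.

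Changes between neighbouring times were also followed within each arm. From 4 h to 12 h under the isotype control 5 of 6 members rose, against 15.9% of tested genes called higher: Oas1g by 1.41, Oas3 by 1.19, Oas1a by 0.76, Oas2 by 0.51 and Oasl2 by 0.35 on the log2 scale (adjusted p from 4.56e-05 to 0.0127). The Oas1 genes summed were 0.84 higher (adjusted p = 0.00234). GC tilt differed between the 2 groups (-0.84, -1.62 and 0.636 in isotype 4 h, 0.601, 0.827 and 0.841 in isotype 12 h libraries). With the GC correction these 5 members were still called, with rises of 1.31 (Oas1g), 0.85 (Oas3), 0.64 (Oas1a), 0.47 (Oas2) and 0.38 (Oasl2). Oasl1 was 0.45 higher and not called (adjusted p = 0.261). Without isotype 4 h replicate 3 it was 0.91 higher and called (adjusted p = 0.019), and with the GC correction it was 0.01 higher (adjusted p = 0.963). Under FcMR 2 of 6 rose in that interval, a count not far from the 21.5% of tested genes called higher. Those were Oas1g by 0.58 (adjusted p = 0.022) and Oas2 by 0.44 (adjusted p = 0.0231). Oasl1 was 0.70 lower, which was not called (adjusted p = 0.0771). This difference was called in 9 of 33 alternatives, among them the GC correction (-0.96, adjusted p = 1.57e-05), DESeq2 and the fits without isotype 4 h replicate 2 (adjusted p = 0.0275) or 3 (adjusted p = 0.0396). Of the 2 rises, leaving out FcMR 4 h replicate 1 or 2 left 0 and leaving out FcMR 4 h replicate 3 or any 1 of the FcMR 12 h libraries left 1, and the difference of the summed Oas1 genes was 0.14 (adjusted p = 0.565). The test of the difference between the arms is the one given above for 12 h against 4 h.

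From 12 h to 24 h members of the family fell in both arms and none rose. Under the isotype control 3 of 6 members fell, against 9.49% of tested genes called lower: Oasl1 by 1.69 (SE 0.317, adjusted p = 0.00119), Oas1a by 0.67 (adjusted p = 0.0223) and Oasl2 by 0.51 (adjusted p = 0.00057). Under FcMR 4 of 6 fell, against 12.6% of tested genes: Oasl1 by 1.62 (SE 0.312, adjusted p = 0.0011), Oas1a by 0.77 (adjusted p = 0.00685), Oasl2 by 0.54 (adjusted p = 0.00024) and Oas2 by 0.42 (adjusted p = 0.045). The members not called were lower by 0.22 to 0.61. The Oas1 genes summed were lower and called in both arms, by 0.59 under the isotype control (adjusted p = 0.0377) and by 0.67 under FcMR (adjusted p = 0.0139). With the GC correction Oas3 was called in both arms (-0.39, adjusted p = 0.0309, and -0.40, adjusted p = 0.0225), and 6 of 6 were called under FcMR. Leaving out isotype 4 h replicate 3 also called 6 of 6 under FcMR, and called Oas3 under the isotype control (-0.59, adjusted p = 0.039). Under FcMR, Oas1g was also called without isotype 4 h replicate 2, and both Oas1g and Oas3 without FcMR 12 h replicate 1 or FcMR 24 h replicate 3. Oas3 was called there without untreated replicate 1 as well. Oasl1 kept its call in all 33 alternative settings in both arms (-1.34 under the isotype control and -1.30 under FcMR with the GC correction). Oas2 under FcMR kept it in 11 of 33 and was lost without any 1 of the FcMR libraries. Oas1a under the isotype control was not called without isotype 12 h replicate 2 or 3 or any 1 of the isotype 24 h libraries (adjusted p from 0.0571 to 0.0755). Even at 24 h every treated library stayed above the untreated ones in all 6 genes.

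Levels of different genes were compared as CPM per kilobase of transcript. In untreated cells Oas1a led with 13.6 ± 2.69 (SD, n = 3), and the others, from Oasl2 (3.61) over Oas1g (2.93), Oasl1 (2.24) and Oas3 (1.84) to Oas2 (1.27), each overlapped their neighbour in the order. In isotype 4 h libraries Oasl2 (113 ± 7.58) and Oas1a (95.8 ± 27.7) led and overlapped, followed by Oasl1 (49.6 ± 25.5). In FcMR 4 h libraries the order was Oasl1 (255 ± 22.5), Oasl2 (210 ± 0.976) and Oas1a (190 ± 14.7), each apart from the next. Oas3 (54.6) and Oas1g (44.9) came next and overlapped.

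At 12 h Oas1a (162), Oasl2 (144) and Oasl1 (68) led in isotype libraries without an overlap, and Oasl2 (216), Oas1a (196) and Oasl1 (157) led in FcMR libraries, each overlapping the next. At 24 h Oas1a and Oasl2 shared the lead in both arms, at 102 each in isotype and at 115 and 148 in FcMR, and overlapped. Oas2 was last in all 7 groups, at 11.1 to 18.7 CPM per kilobase in the treated ones, and stood apart from the gene above it in all 6 treated groups.

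The make-up of the family, as each gene's share of the summed CPM per kilobase, therefore shifted. Oas1a held 53.4 ± 0.644% (SD, n = 3) of it in untreated libraries and 24.7 to 32.1% on average in treated ones. Oasl1 held 8.65% in untreated, 15 ± 5.43% in isotype 4 h and 33.2 ± 1.52% in FcMR 4 h libraries, a share that lay at 31.7 to 34.8% in the latter and at 9.24 to 20% in the former. At 24 h Oasl1 held 6.64 ± 0.0477% in isotype and 12.1 ± 2.72% in FcMR libraries. Oasl2 held 14.4% in untreated and 27.4 to 36.8% in treated groups.

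**Figure D4:**
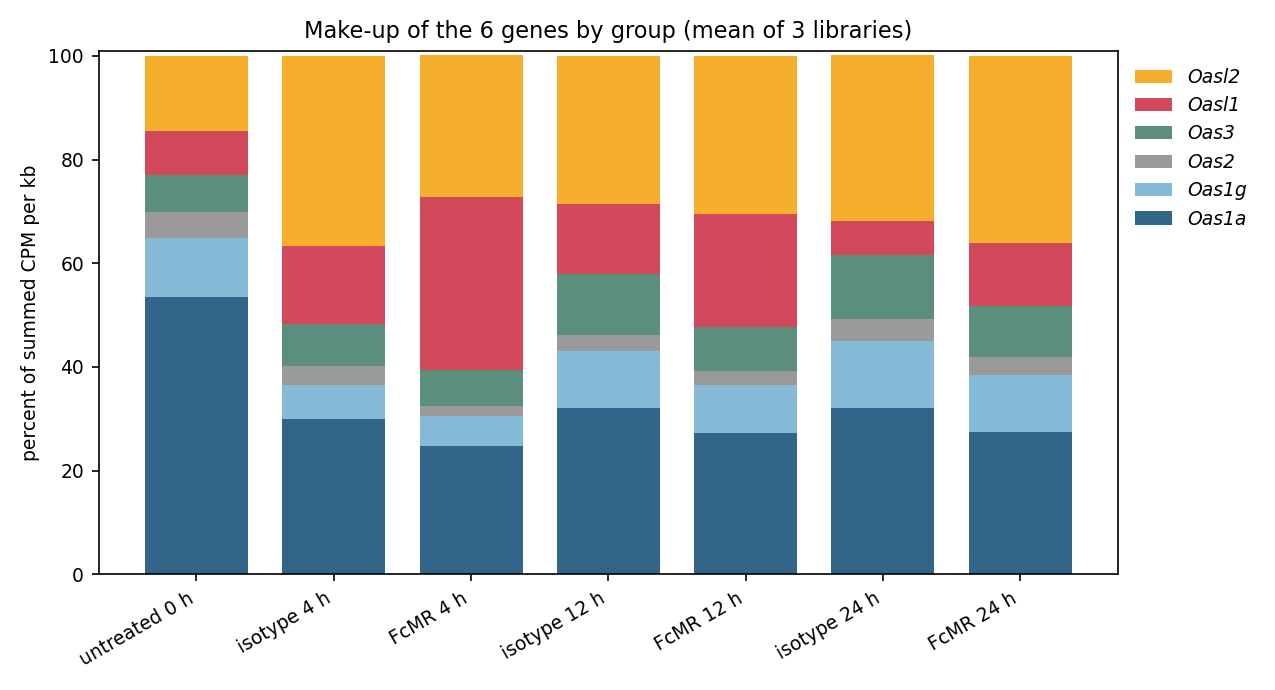
Share of each gene in the summed CPM per kilobase of the 6 genes, as the mean of 3 libraries per group. Oas1a holds 53.4% in untreated cells, and Oasl1 holds 33.2% in FcMR 4 h against 15% in isotype 4 h.

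Of the 6 other Oas1 paralogs, 4 are in the table and 2 were tested. Oas1d had at most 3 counts in any library and Oas1h at most 12, so neither was tested. Oas1b, which the annotation marks as a polymorphic pseudogene, was at 11.9, 11.4 and 18.4 CPM in isotype 4 h and 21.1, 23.2 and 28.7 in FcMR 4 h libraries. Its groups did not overlap, and the difference of 0.79 was called (SE 0.251, adjusted p = 0.0371), as was that of Oas1c, 0.49 (SE 0.142, adjusted p = 0.0215). At 12 h neither was called, and at 24 h Oas1c was (0.50, adjusted p = 0.0123). The call of Oas1b at 4 h was lost without FcMR replicate 2 or 3 or isotype replicate 1 or 2 (adjusted p from 0.076 to 0.125), and that of Oas1c without FcMR replicate 1 or 2 or isotype replicate 2 or 3 (0.0525 to 0.158). With only the groups compared in the fit both were lost (0.0879 and 0.252). Oas1b also shares windows of 31 bases with Oas1a and Oas1g.

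Abce1, Pde12, Akap7 and Cnp are 4 genes whose products act on 2-5A, belong to the same phosphoesterase family or are otherwise tied to the pathway. Of these 4, 1 was called higher at 4 h, against 8.62% of tested genes. Their median log2 fold change of FcMR over isotype was -0.19, -0.05 and -0.05 at the 3 times. That of all tested genes was -0.07, -0.02 and 0.01. Cnp, like Akap7 of the 2H phosphoesterase family, was called higher at 4 h (0.59, SE 0.188, adjusted p = 0.0372) and not later (-0.12 and -0.15). That call was lost without FcMR 4 h replicate 1 or 2 or isotype 4 h replicate 1 or 2 (adjusted p from 0.0553 to 0.119), and with only the groups compared in the fit (0.0973). Abce1, which recycles ribosomes, Pde12, which degrades 2-5A, and Akap7 were not called at any time, with log2 fold changes of -0.36, -0.28 and -0.10 at 4 h.

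The 10 other genes listed for nucleic acid sensing moved partly with the family. Not all of them are sensors: Mavs and Adar are among them. Of 10, 7 were called higher under FcMR at 4 h, 5 at 12 h and 3 at 24 h, and none lower, against 8.62%, 8.61% and 11.4% of all tested genes called higher. The median log2 fold changes were 0.83, 0.45 and 0.35. Of the 5 at 12 h, Cgas lost its call in 9 of 33 alternatives and Adar in 7, each also without single libraries of either arm at 12 h. Of the 7 at 4 h, Eif2ak2, named after its values were seen, lost its call in 4. Ifih1, which encodes the RNA sensor MDA5, was highest in the list at all 3 times (1.30, 1.06 and 0.89, adjusted p from 2.42e-06 to 6.58e-05). It was at 473, 471 and 406 CPM in isotype 4 h and 1065, 1080 and 1176 in FcMR 4 h libraries. Dhx58, which encodes LGP2, and Zbp1, a sensor of Z-form nucleic acid, followed at 4 h (1.28 and 1.22). Mavs, the adaptor below the RNA sensors, and Tmem173, which encodes STING, were lowest at 4 h (-0.34 and -0.05) and not called at any time.

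Of 9 genes of type I interferon signalling, 5 were called higher at 4 h, 1 at 12 h and 1 at 24 h, and none lower, with medians of 0.25, 0.1 and 0.13. The counts at 12 h and 24 h are near the 8.61% and 11.4% of all tested genes called higher, and the share at 4 h was 8.62%. Irf9, named after its values were seen, is among the 5 and lost its call in 5 of 33 alternatives, without FcMR 4 h replicate 1 or 2 or isotype 4 h replicate 1 or 2 among them. Ifnb1, the gene of interferon beta, had 7, 1 and 3 counts in isotype 4 h and 44, 115 and 18 in FcMR 4 h libraries, or 0.18 to 1.01 against 3.12 to 4.33 CPM. The difference was 2.79 (SE 0.564, adjusted p = 0.00194) and rests on few counts. At 12 h it was between 0.146 and 0.242 CPM in all libraries of both arms, near the level of 3 counts in most of them. Irf7, the factor whose translation Oasl1 is known to hold back, was at 108, 86.8 and 203 CPM in isotype 4 h and 365, 390 and 349 in FcMR 4 h libraries (1.47, SE 0.27, adjusted p = 0.000911). At 12 h (0.63, adjusted p = 0.123) and 24 h (0.62, adjusted p = 0.112) it was not called. Ifnar2, a chain of the receptor, was called at all times with a difference of 0.57, 0.69 and 0.85.

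Marker sums of the cell types that marrow cultures can hold are given beside these results. At 4 h the 7 dendritic cell markers summed to 1435 to 1508 CPM in isotype and 1637 to 1804 in FcMR libraries, at 12 h to 1695 to 1751 against 1620 to 1849, and at 24 h to 1378 to 1519 against 1557 to 1648. The dendritic cell sums are mostly Itgax and Ccr7, which went opposite ways at 24 h. Ccr7 was at a mean of 395 CPM in isotype 24 h and 672 in FcMR 24 h libraries, and Itgax at 1011 and 867. The 8 macrophage markers summed to 28159 to 32108 CPM in isotype and 29168 to 29597 in FcMR libraries at 4 h, to 23546 to 25684 against 20546 to 24089 at 12 h, and to 31636 to 35857 against 25894 to 27780 at 24 h. These sums are mostly Lyz2 (mean 28184 CPM in isotype 24 h, 21707 in FcMR 24 h), and Adgre1 in the same list had the opposite order (837 against 1507 CPM). The sums of the 6 neutrophil markers overlapped between the arms at each time, at 1006 to 1351 against 989 to 1175 CPM at 4 h. Single markers of that list did not all overlap. At 24 h S100a8 was at 84.5 to 86.5 CPM in isotype and higher in FcMR libraries, at 132 to 144. Ngp (23.3 to 30.9 in isotype, 9.14 to 18.1 in FcMR) and Ltf (9.78 to 16.4 and 1.1 to 3.91) were lower in FcMR 24 h libraries. The part of these shifts in the differences of the OAS genes was not tested.

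Genes with a course like that of each member were sought over the 6 treated groups, by the root mean square difference in mean log2 change from untreated, among 11428 genes outside the family whose mean log2 CPM reached 1. Oas1a was closest to Ube2l6, a conjugating enzyme of ISG15 (0.26), then to Gm20688 (0.28) and Xaf1 (0.41). Oas1g was closest to Oprd1 (0.25), Serpinb9b (0.34) and Ms4a6c (0.44). Oas2 was closest to BE692007 (0.29), Gm20688 (0.37) and Ube2l6 (0.43), and Oas3 to Ifi206 (0.40), Ifi213 (0.40) and Phf11d (0.47).

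Oasl1 had no gene as near, with Phf11a (0.49), Apol7b (0.49) and Isg15 (0.52), the ubiquitin-like modifier, as its closest. Oasl2 was closest to Apol7c (0.26), Ifit3 (0.34) and Ifi213 (0.42). Within the family the nearest pair was Oas1a and Oas2 (0.33) and the farthest Oas1a and Oasl2 (2.03), while the near-identical Oas1a and Oas1g were 0.63 apart. These are descriptions over 6 group means that share the untreated libraries.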

How the data were processed

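Libraries made with a TruSeq RNA kit from 100 ng of RNA were read as 75 bp single ends, per the labels. The authors deposited a table they call raw, which was treated as estimated counts per gene (whole numbers already, so rounding changed none), and a table of normalized signal, which the authors' scaling made from the first. CASAVA 1.8.2, kallisto 0.44.0, DESeq2 and the builds mm10 and GRCm38 stand in the submitters' processing notes, which give no role or order. The design had assumed plain counts, and its test was kept because it also takes estimated counts. Estimated counts divide reads between near-identical copies, which affects Oas1a and Oas1g most.

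IDs were matched without version to GENCODE M21 (GRCm38): 23187 of 23250 had a symbol, and 21231 also matched with their version, so the authors' annotation differed in part. edgeR 4.0.16 (R 4.3.3) fitted all 21 libraries with a coefficient per group (TMM, filterByExpr with a minimum of 10 counts, 13468 genes tested). Its quasi-likelihood test was adjusted by Benjamini-Hochberg over all tested genes, and calls are at an adjusted p-value under 0.05. Library totals of 5532225 to 66729533 counts put 3 counts at 0.045 to 0.542 CPM. No 2 replicates agreed within counting error (smallest chi-square over its degrees of freedom 3.09), so each was counted. The fit was tested on simulated data.

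The 6 members, the lists and the tests were chosen with earlier results of these data known. All members and the genes of the first 2 lists (other Oas1 paralogs, 2-5A pathway) may be named. Of the other 2 lists the 3 highest and 2 lowest fold changes per comparison of FcMR with isotype may be named, with Ifnb1. Ddx58, Eif2ak2, Adar, Cgas, Tlr3, Jak1, Tyk2, Irf3, Irf9 and Ifnar1 are counted with them. Alternatives were RLE factors, 2 other filters, DESeq2 1.42.0, only the groups compared, a replicate block, a GC correction in 20 bins with and without that block, the authors' factors, summed Oas1 genes, and leaving out libraries. One more set of 3 libraries to leave out was chosen after seeing the data. Some genes of the lists are not reported here, and the counts over lists leave them out.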

Additional observations from a re-analysis of the deposited data

Results flagged for a closer look

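The FcMR effect differed over 4, 12 and 24 h by the joint interaction test of edgeR for 4 named genes, none of them a member of the OAS family. The test called 11% of all 13468 tested genes, so the count of 4 is not read as a result about these genes. It called 0 of 6 members, of which 5 had an unadjusted p under 0.05. For Stat2, a factor of interferon signalling (adjusted p = 0.00724), it was 0.78, 0.27 and 0.06 on the log2 scale at the 3 times. For Adar, which edits double-stranded RNA (adjusted p = 0.0113), it was 0.81, 0.30 and 0.22, for Zbp1 (adjusted p = 0.0173) 1.22, 0.55 and 0.59, and for Dhx58 (adjusted p = 0.0266) 1.28, 0.40 and 0.23. Stat2 and Adar were called in all 33 alternatives. Zbp1 was not called without FcMR 4 h replicate 1 (adjusted p = 0.0536). Dhx58 was not called without FcMR 4 h replicate 1 (0.0536) or 2 (0.0711) or isotype 4 h replicate 1 (0.0615) or 2 (0.0652).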

How the results depend on the processing

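Oasl1 and Oasl2 were called in FcMR against isotype at 4, 12 and 24 h in all 33 alternatives, as were Oas1a, Oas1g and Oas3 at 4 h and all members in isotype against untreated. In the alternative with summed Oas1 genes, the result of the sum stands for both Oas1a and Oas1g, so neither was tested alone there. Counts of members in that alternative take the sum as 1 feature. Other counts depended on the setting. Counts of members in these settings, here and above, are given without the share of all tested genes called in the same setting. For FcMR against isotype at 12 h, 4 of 6 were called without isotype 4 h replicate 3, FcMR 12 h replicate 1 and FcMR 24 h replicate 2, the 3 libraries whose GC tilt stood apart, an alternative chosen after seeing the data. In the same setting isotype 24 h against 12 h called 5, FcMR 12 h against 4 h called 4, and the joint test and the effect at 12 h minus 4 h each called 5. Isotype 24 h against 12 h also called 5 with only the groups compared and 5 with the replicate block and GC correction (2 to 4 when each library was left out in turn). FcMR 12 h against 4 h called 1 with Oas1 genes summed (0 to 3 when leaving out each library), and FcMR 24 h against 12 h, which called 4, called 1 with only the groups compared and 6 with the GC correction, with and without the block (3 to 6 when leaving out each library).

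The joint test, which called 0, called 2 with RLE factors, 4 with DESeq2, 1 with only the groups compared, 1 with the authors' factors, 5 with the GC correction, 4 without both libraries that are out of title order, and 0 to 4 when each library was left out. The effect at 12 h minus 4 h, which called 0, called 2 with DESeq2, 5 with the GC correction, 3 without the out-of-order pair, and 0 to 4 with each library left out. The cause was not tested.

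Values near 0 changed sign. For FcMR 12 h against 4 h, Oas1a was -0.01 with RLE factors and with DESeq2 and -0.06 with the GC correction, with and without the block (-0.01 to 0.19 with each library left out). Oasl2 was -0.02 with RLE factors, DESeq2 and both GC corrections, -0.03 without the out-of-order pair and -0.06 without the 3 libraries (-0.03 to 0.11). For the effect at 24 h minus 12 h, Oas3 was 0.00 with only the groups compared and with the authors' factors (-0.19 to 0.12). Oasl1 was -0.00 with the authors' factors and -0.12 without the pair (-0.18 to 0.29), and Oasl2 was 0.07 without the pair and 0.00 without the 3 libraries (-0.1 to 0.07). Leaving out each library also took Oas1a there to -0.25 to 0.05 and Oas1g to -0.32 to 0.09, the effect of Oas2 at 12 h minus 4 h to -0.26 to 0.05, Oas3 in FcMR against isotype at 12 h to -0.06 to 0.25, and Oas1g, Oas2 and Oas3 at 24 h to -0.05 to 0.38, -0.02 to 0.13 and -0.07 to 0.18.

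Replicate numbers in the titles are shared by all groups, but nothing says that they pair libraries. Deviations of same-numbered FcMR and isotype libraries correlated at -0.166 to 0.027 at 4 h, 0.046 to 0.199 at 12 h and -0.001 to 0.036 at 24 h, so they were not treated as pairs. The replicate block changed the count of members called in 2 of 13 comparisons: the joint test called 1, and FcMR 24 h against 12 h called 5. With the block and the GC correction together the joint test called 5 and the effect at 12 h minus 4 h called 5.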

Other observations

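The members' place among all genes shows the scale of their rise. By mean CPM per kilobase, Oasl2 was above 39.2% of 13440 tested genes with a known length in untreated cells, above 95.1% in isotype 4 h and above 96.6% in FcMR 4 h libraries. Oasl1 was above 30.5%, 89.4% and 97.2%, and Oas2 above 21.9%, 65.2% and 69.7%. Oas1a, the highest member in untreated cells, was above 70.5%, 94.4% and 96.4%. Ordered by fold change among 13468 genes, Oasl1 was at place 74 in FcMR against isotype at 4 h, 392 at 12 h and 575 at 24 h. Oasl2 was at place 641 at 4 h and 1652 at 24 h in those comparisons, and at place 57, 36 and 40 in isotype against untreated cells at 4, 12 and 24 h.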
